A study of Corylus heterophylla with 6 samples.

Results

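ChARF3 ChIP-Seq peaks were described at 6 genes of the MADS-box family in developing ovules of hazel (Corylus heterophylla). These genes are STK (Cor0188960.1), MFO1 (Cor0152110.1), AGL21 (Cor0032980.1), AGL61 (Cor0063970.1) and the SOC1 genes Cor0152090.1 and Cor0083230.1. Together they carried 8 of the 3669 deposited peaks, namely 2 of the 1412 Ov1.1 peaks, 5 of the 1364 Ov2.1 peaks and 1 of the 893 Ov3.1 peaks. The members were chosen by having a peak in these same lists, so the peaks themselves and their strength are a description and were not tested. Symbols, genomic classes and closest genes are those of the study's annotation.

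The 3 stages were ovule formation (Ov1.1), early ovule growth (Ov2.1) and rapid ovule growth (Ov3.1), each with 1 ChIP library made with a polyclonal antibody against ChARF3 and 1 input library made without it. The antigen covered residues 1 to 380 of the protein, and chromatin of manually isolated ovules, fixed with formaldehyde, was sheared to between 200 and 600 bp. The labels call all 6 libraries wild germplasm of C. heterophylla, whereas the methods of the study describe a hybrid cultivar, and no library of a plant lacking ChARF3 was used here. No stage had a replicate, so values of different stages were set side by side and no difference between stages was tested. Peak lists hold no expression values, so the labelled tissue could not be checked against marker genes.

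MADS-box proteins are DNA-binding transcription factors that act as dimers or larger complexes, and plants have type I members, with the DNA-binding MADS domain, and type II (MIKC) members, which also have a keratin-like K-box for dimerisation. In Arabidopsis, STK (SEEDSTICK, also AGL11) specifies ovule identity and acts in seed development, SOC1 integrates flowering signals, AGL21 acts in lateral root growth, and the type I gene AGL61 (DIANA) is needed for the central cell of the female gametophyte. MFO1 is the rice name of a gene of the AGL6 clade, which acts in floral organ and meristem identity. ChARF3 is an auxin response factor, a transcription factor that controls genes in response to auxin. The hazel genes of this family were numbered by chromosomal position, so its number does not make it the counterpart of Arabidopsis ARF3.

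The deposited fold enrichment of a peak is a ratio of ChIP to background, with 1 added to both, and the whole number of ChIP fragments at the summit and the background expected there were solved from it and the deposited p. For each of the 3 lists, every peak was met by a whole fragment number within 0.01 on the −log10 p scale. The Ov1.1 list rested on a median of 17 fragments per peak, against 4 in Ov2.1 and 3 in Ov3.1. The lowest background of the Ov1.1 list was 3.68 fragments, that of Ov2.1 was 0.195 and that of Ov3.1 was 0.102. A fold enrichment of a given size therefore stood on fewer fragments at the later stages. In the study's read counts, the ChIP library of early ovule growth had more mapped reads than that of ovule formation. The ChIP library of rapid ovule growth had fewer than either. The cause of the differences in fragments and background was not tested. Intervals given below are exact Poisson 95% intervals of the fragment number, carried to the fold enrichment with the background held fixed, and they cover counting error only.

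**Figure D1:**
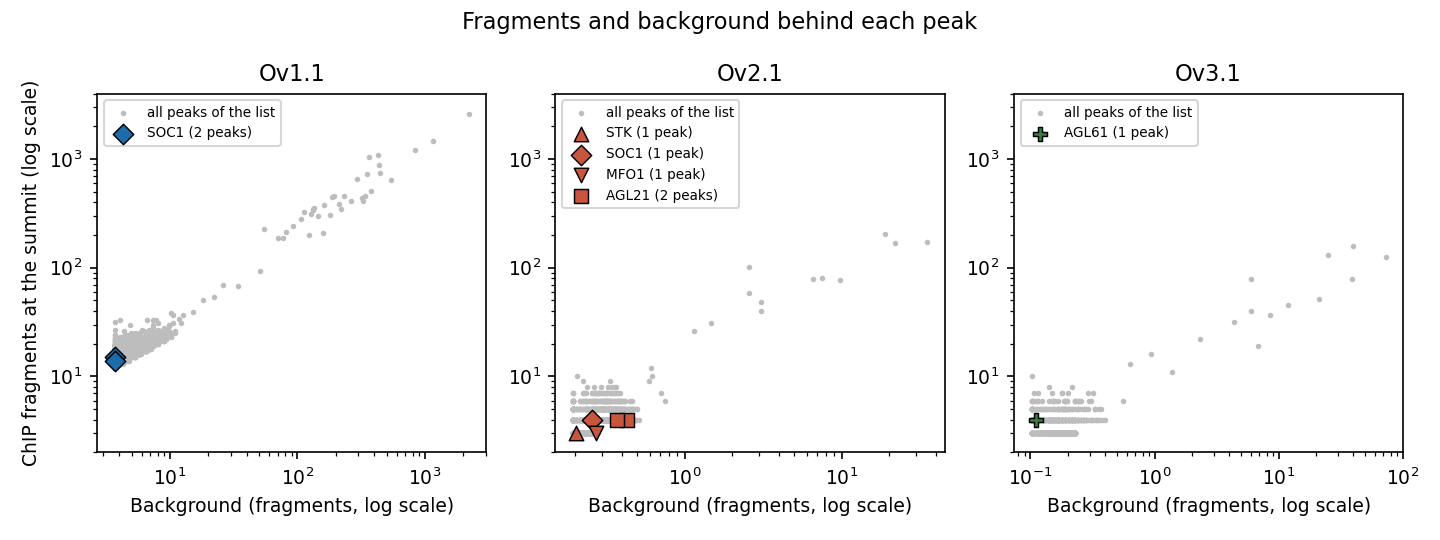
Solved ChIP fragments at the summit against the solved background, both in fragments on log scales, for every peak of the Ov1.1, Ov2.1 and Ov3.1 lists (grey) and the MADS-box peaks (coloured symbols). The SOC1 peaks of Ov1.1 had 14 and 15 fragments over 3.68, and the 6 later peaks had 3 or 4 fragments over less than 1.

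STK, whose relatives specify ovule identity, had a single peak, at Ov2.1. It was 512 bp wide (tig00007049:369060-369571), was annotated to the promoter class and lay across the start of the gene. The fold enrichment was 3.33 (1.35 to 8.12), from 3 fragments over a background of 0.202, with a q of 0.0309. That background was close to the lowest of the Ov2.1 list, and 23.8% of the list had a lower one. By fold enrichment the STK peak ranked 1040 of 1364, with 23.6% of the list below it. The annotation lists a K-box for this protein and a birch AGL11 homologue as a best hit, as for a type II member.

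STK was the only one of the 6 genes without any other peak within 50 kb of its peak. Its contig held 4 peaks over the 3 lists, and no other of Ov2.1. The nearest was an Ov1.1 peak 90334 bp away (tig00007049:277643-278726), with 2604 fragments over 2202 and a fold enrichment of 1.18. No other Ov1.1 peak had as many fragments, and with the q of 9.61e-13 this small ratio rested on the deepest pile of fragments of its list. The nearest Ov3.1 peak was 140288 bp away.

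AGL21, of the clade known for root development in Arabidopsis, was the only one of the 6 genes with 2 peaks at the same stage. Both were found at Ov2.1. One was 488 bp wide and lay in the first intron (tig00007253:1807133-1807620), with a fold enrichment of 3.50 (1.46 to 7.86) and a q of 0.0309. The other was 460 bp wide and lay across the start of the gene (tig00007253:1814875-1815334), with a fold enrichment of 3.64 (1.52 to 8.19) and a q of 0.0270. Their intervals overlapped almost wholly, and each peak had 4 fragments.

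The AGL21 peaks stood on a higher background than the other MADS-box peaks of Ov2.1. It was 0.429 fragments in the intron and 0.372 at the start of the gene, and 96.3% and 89.6% of the Ov2.1 list had a lower one. No other peak of the list shared the exact values of the intronic peak. The gap between both AGL21 peaks was 7255 bp, and 7.04% of all Ov2.1 peaks had another Ov2.1 peak at least as near. No further peak lay within 50 kb of either. The nearest beyond was an Ov2.1 peak at tig00007253:1894155-1894509, 78821 bp from the start-site peak, with a fold enrichment of 5.02 from 5 fragments over 0.195. The nearest Ov1.1 peak to AGL21 was 264050 bp away and the nearest Ov3.1 peak 1016414 bp away. In these libraries the peaks near this gene were thus called at early ovule growth only. This was not particular to AGL21, as STK likewise had no peak of another stage within 50 kb. Of all Ov2.1 peaks, 1.17% overlapped a peak of another list.

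SOC1 Cor0152090.1 and MFO1 are neighbours on contig tig00007107, as SOC1 and AGL6 are in Arabidopsis. In the study's annotation the genes point towards each other, and both lie between the outer peaks of the locus. Among the 8 peaks, SOC1 Cor0152090.1 was the only gene with peaks in 2 lists. At Ov1.1 its peak was 404 bp wide and lay in the first intron (tig00007107:631692-632095). At Ov2.1 its peak was 470 bp wide and lay upstream, in the distal intergenic class (tig00007107:616757-617226). The positions of both stages were separated by 14466 bp and did not overlap.

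The intronic SOC1 peak of Ov1.1 had a fold enrichment of 3.42 (2.01 to 5.50), from 15 fragments over 3.68, with a q of 0.00470. It stood above the median of its list, with 64.7% of the Ov1.1 peaks lower by fold enrichment and 45.9% lower by −log10 q. The upstream SOC1 peak of Ov2.1 had a fold enrichment of 3.98 (1.66 to 8.95), from 4 fragments over 0.256, with a q of 0.00872. It was the highest of the 5 MADS-box peaks of Ov2.1, and 56.4% of the list was lower. Of all Ov2.1 peaks, 10.9% had an Ov1.1 peak at least as near as that of SOC1, which is 148 of 1364.

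MFO1, the AGL6-like member, had its single peak at Ov2.1, 390 bp wide and upstream of the gene in the distal intergenic class (tig00007107:668551-668940). Its fold enrichment was 3.14 (1.27 to 7.68), from 3 fragments over 0.272, with a q of 0.0480 just inside the limit of 0.05 used for the list. It was the lowest of the 8 peaks within its own list, ranked 1324 of 1364, and only 38 peaks of Ov2.1 had a lower −log10 q. It lay 36456 bp from the intronic SOC1 peak of Ov1.1 and 51325 bp from the upstream SOC1 peak of Ov2.1.

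**Figure D2:**
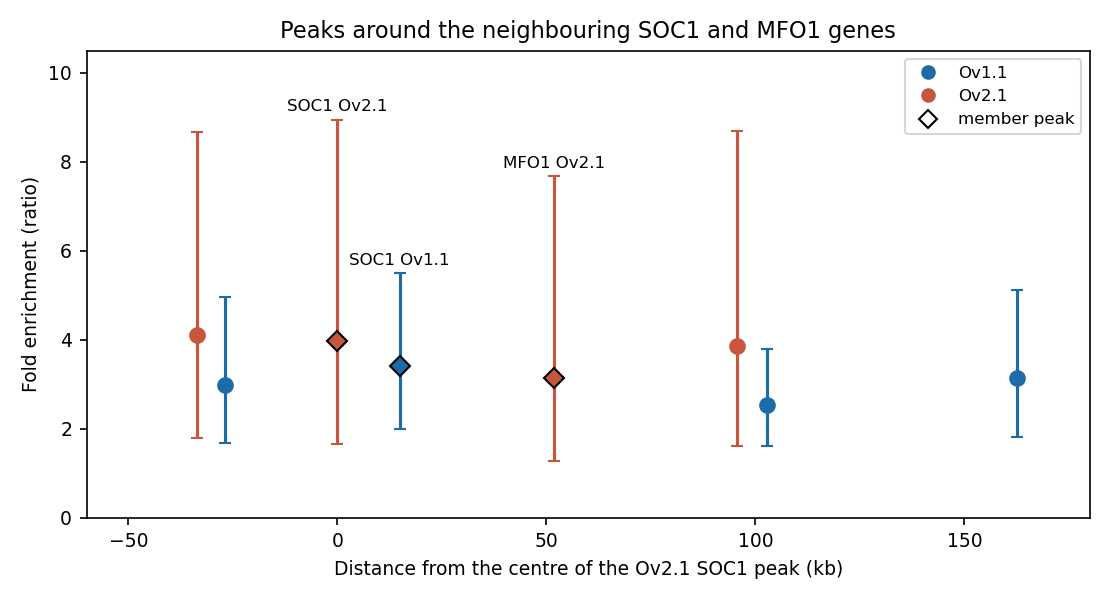
Fold enrichment (ratio) of peaks around SOC1 Cor0152090.1 and MFO1 against the distance from the centre of the Ov2.1 SOC1 peak in kb, with bars for the exact Poisson 95% interval and diamonds for the MADS-box peaks. Peaks of Ov1.1 and Ov2.1 are interspersed along the locus without overlap, no Ov3.1 peak falls in the range drawn, and all intervals overlap.

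Around the SOC1 and MFO1 peaks lay 3 other peaks within 50 kb. At the SOC1 end these were an Ov1.1 peak at the promoter of Cor0152080.1 (tig00007107:589978-590224), with a fold enrichment of 2.99 from 13 fragments over 3.68, and an Ov2.1 peak at the promoter of Cor0152070.1 (tig00007107:583330-583667), with 4.11 from 5 fragments over 0.460. At the MFO1 end an Ov2.1 peak at the promoter of Cor0152160.1 (tig00007107:712207-712810) had a fold enrichment of 3.87 from 4 fragments over 0.294. The intronic SOC1 peak thus had 4 peaks within 50 kb, among them the upstream SOC1 and MFO1 peaks, which were themselves chosen as members. Over the Ov1.1 list the median was 1, the upper quartile 2 and the maximum 7. Because the locus was chosen with these neighbours, its count is a description only. An Ov1.1 peak at tig00007107:719475-719838 lay just outside, 50535 bp from the MFO1 peak, with a fold enrichment of 2.53 from 21 fragments over 7.70.

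The contig as a whole held 13 peaks, of which 7 were from Ov1.1, 5 from Ov2.1 and 1 from Ov3.1. This is 12.7 peaks per Mb up to the last peak, close to the 11.9 per Mb of all contigs counted in the same way. Its single Ov3.1 peak (tig00007107:432201-432478) had a fold enrichment of 3.37 from 3 fragments over 0.188, and stood before the upstream SOC1 peak along the contig. Of the remaining peaks, a pair 2667 bp apart lay near the start of the contig, 1 at Ov1.1 with 14 fragments over 3.68 and 1 at Ov2.1 with 5 over 0.326. The other 3 were Ov1.1 peaks whose centres lay 162.7, 227.5 and 409.8 kb beyond that of the upstream SOC1 peak. The middle one (tig00007107:844400-844660) had the lowest fold enrichment of the contig, 2.02, on the most fragments, 296 over 146, and its q was 1.98e-23. The last one (tig00007107:1026643-1026978) had 17 fragments over 3.68 and a fold enrichment of 3.85.

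The second SOC1 gene, Cor0083230.1, had a peak at Ov1.1, 288 bp wide and in the promoter class (tig00007149:1166820-1167107). Its fold enrichment was 3.21 (1.85 to 5.23), from 14 fragments over 3.68, with a q of 0.0112. This was the median value of the Ov1.1 list. It differed from the intronic peak of the other SOC1 gene by 1 fragment over the same background. Another 76 peaks of Ov1.1 had exactly its values, and 71 had exactly those of the intronic peak, so both shared their values with many peaks. The peak of Cor0083230.1 was in the middle of the list by fold enrichment only. Fewer fragments were seen in 4.39% of the Ov1.1 list and a lower −log10 q in 25.3%, and its background was the lowest of the list, a level shared by 25.3% of its peaks. For the intronic peak 14.2% of the list had fewer fragments. The name of this gene is less settled than that of the other. The annotation gives a rice SOC1-like best hit in one database and AGL104, a type II gene of another clade, in another.

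Within 50 kb of this peak there was 1 other, also of Ov1.1, 7692 bp away at the promoter of Cor0083250.1, a beta-amylase-like gene (tig00007149:1174799-1175268). It had a fold enrichment of 2.99 from 18 fragments over 5.36, with a q of 0.00698. The next peak of a later stage was far off, at 281272 bp for Ov2.1 and 414470 bp for Ov3.1.

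AGL61, the type I member, had the single MADS-box peak of Ov3.1. It was 391 bp wide, in the distal intergenic class (tig00006949:671318-671708), with a fold enrichment of 4.50 (1.88 to 10.1) from 4 fragments over 0.111 and a q of 0.000618. It had the highest fold enrichment and the lowest q of the 8 peaks, and ranked 171 of 893 in its list, with 80.6% of the list lower. In the Ov3.1 list 25.9% of peaks had 4 fragments and 59.4% had fewer. A lower background than that of AGL61 was seen in 22.7% of the list.

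Peaks of all stages stood in a short stretch on one side of AGL61. Along 7656 bp lay an Ov3.1 peak (tig00006949:620596-620901), then an Ov1.1 peak 2286 bp on (tig00006949:623187-623495) and an Ov2.1 peak 4409 bp further (tig00006949:627904-628251). The Ov2.1 peak was at the promoter of Cor0063920.1, a xyloglucan endotransglucosylase/hydrolase, an enzyme class that remodels cell walls. It lay 43067 bp from the AGL61 peak, and the Ov1.1 peak 47823 bp. The Ov3.1 peak was just outside the window, at 50417 bp. Their fold enrichments were 3.29 from 3 fragments over 0.217 at Ov3.1, 3.21 from 14 over 3.68 at Ov1.1 and 3.71 from 4 over 0.348 at Ov2.1. Of all Ov3.1 peaks, 13.0% had both an Ov1.1 and an Ov2.1 peak within 50 kb, which is 116 of 893.

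**Figure D3:**
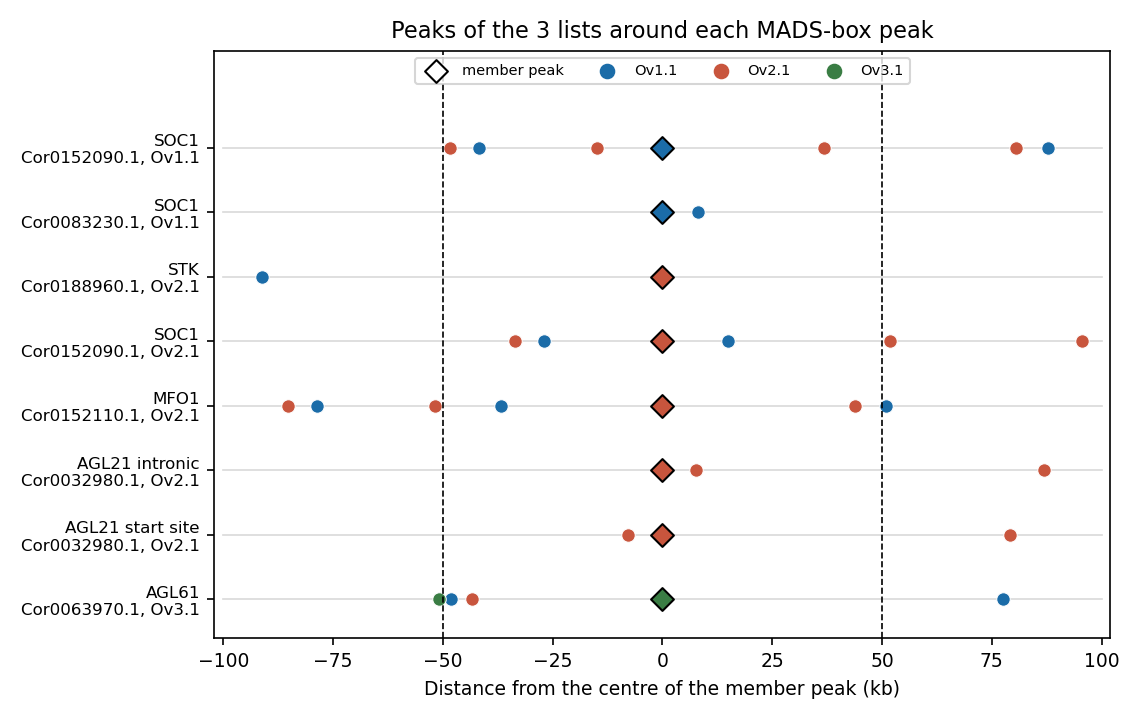
Peaks of the Ov1.1, Ov2.1 and Ov3.1 lists within 100 kb of each MADS-box peak, by distance between centres in kb, with the MADS-box peak itself as a diamond and dashed lines at 50 kb. STK has no neighbour inside the lines, AGL21 has only its own second peak, and the windows of SOC1 Cor0152090.1 and MFO1 overlap and share neighbours.

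Counted over all 8 windows, 6 other peaks lay within 50 kb, 3 of Ov1.1 and 3 of Ov2.1. None was of Ov3.1. Another peak of any list, MADS-box peaks included, lay within 50 kb of 2 of 2 members in the Ov1.1 list (73.1% of the list), 4 of 5 in Ov2.1 (67.4% of the list) and 1 of 1 in Ov3.1 (69.2% of the list). Most peaks of each list thus had a neighbour, and STK was the only member without one. Each AGL21 peak had only the other as a neighbour, so these members do not stand apart from their list. No MADS-box peak overlapped a peak of another stage, with 0 of 2 members in the Ov1.1 list (0.354% of the list), 0 of 5 in Ov2.1 (1.17% of the list) and 0 of 1 in Ov3.1 (2.46% of the list). Overlap by at least 1 bp was thus rare in every list, and its absence does not set the members apart.

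Compared among themselves, the 8 fold enrichments ran between 3.14 at MFO1 and 4.50 at AGL61. With the deposited ratio all 8 intervals shared the range between 2.01 and 5.23, and the intervals of 0 of 28 pairs of members were apart. The later peaks had only 3 or 4 fragments each, so their intervals were wide and the overlap does not show that the peaks were alike. The Ov1.1 list had a median of 3.21, the Ov2.1 list 3.86 and the Ov3.1 list 3.63. Of the 8 peaks, 5 lay between the lower and upper quartile of their own list. The exceptions were STK and MFO1 below the lower quartile and AGL61 above the upper one.

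**Figure D4:**
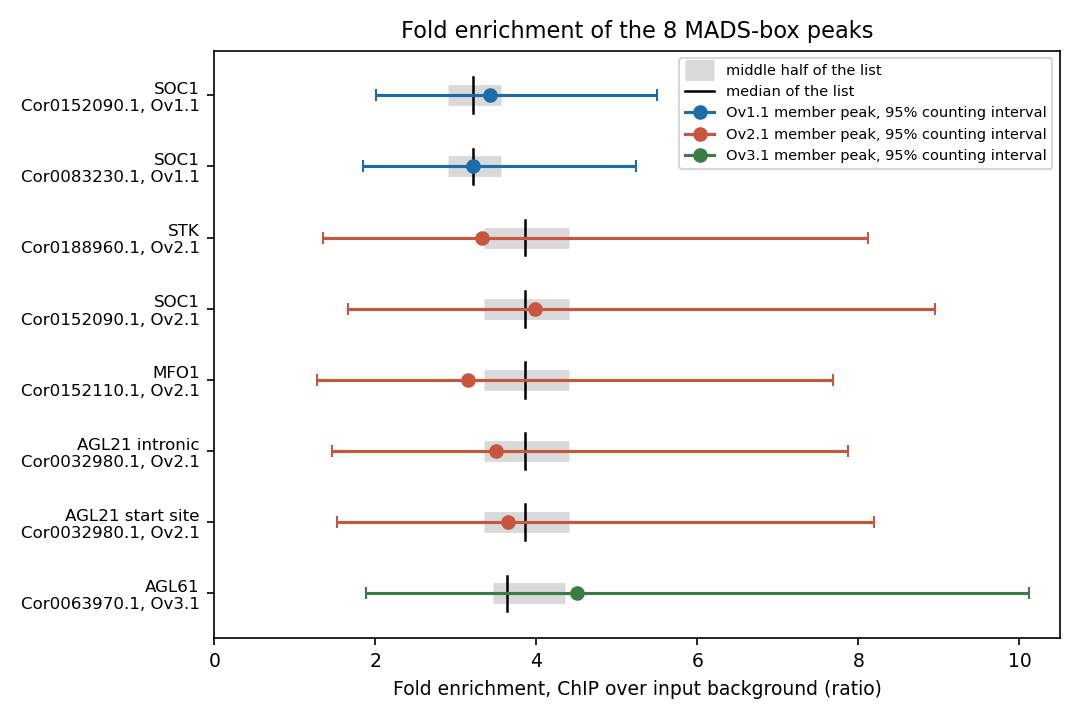
Deposited fold enrichment (ratio) of the 8 MADS-box peaks as points with exact Poisson 95% intervals, beside the median (black line) and the range between the quartiles (grey) of the list of the same stage. All points lie between 3.14 and 4.50, and every interval reaches past the grey band on both sides.

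A fold enrichment of at least 4 was reached by 0 of 2 members in the Ov1.1 list (10.1% of the list), 0 of 5 in Ov2.1 (41.6% of the list) and 1 of 1 in Ov3.1 (37.1% of the list). A q of at most 0.01 was met by 1 of 2 members in the Ov1.1 list (66.0% of the list), 1 of 5 in Ov2.1 (45.4% of the list) and 1 of 1 in Ov3.1 (59.0% of the list). These were the intronic SOC1 peak, the upstream SOC1 peak and AGL61. Since the members were selected on the same calls, these shares stand beside the counts as a description.

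How far a call hung on a single fragment was computed by taking 1 fragment away over the same background and comparing the new −log10 p with the lowest in that list. At Ov1.1, 2 of 2 members stayed above it (91.3% of the list), at Ov2.1, 1 of 5 (47.7% of the list) and at Ov3.1, 1 of 1 (37.0% of the list). The upstream SOC1 peak of Ov2.1 kept a −log10 p of 3.84, against a lowest value of 3.70. AGL61 kept 5.23, against 4.01 for Ov3.1. The peaks of STK, with 2.93, of MFO1, with 2.56, and of AGL21, with 3.0 in the intron and 3.23 at the start of the gene, came to lie below 3.70. STK and MFO1 had 3 fragments, the fewest of any Ov2.1 peak and shared by 37.6% of the list. Their result therefore restates that number. The 2 SOC1 peaks of Ov1.1 kept 5.12 in the intron of Cor0152090.1 and 4.50 at Cor0083230.1, against 3.81.

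**Figure D5:**
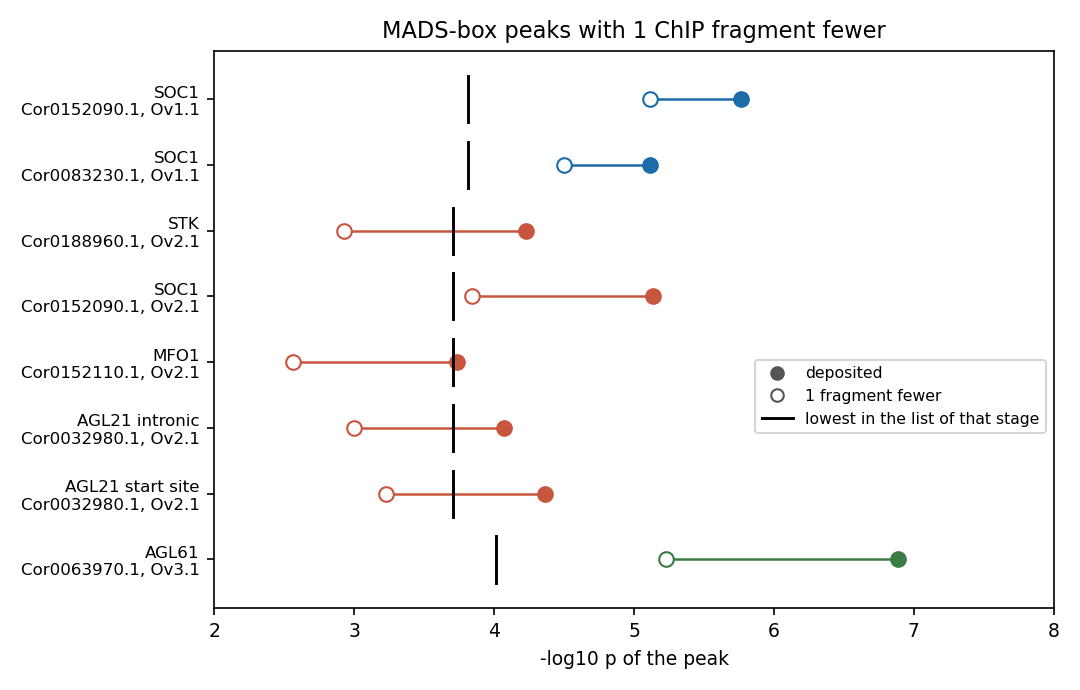
The −log10 p of each MADS-box peak as deposited (filled) and recomputed with 1 ChIP fragment fewer (open), with the lowest −log10 p of the list of that stage as a black bar. The open points of STK, MFO1 and both AGL21 peaks fall below the bar at 3.70, and those of the SOC1 peaks and AGL61 stay above theirs.

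The fold enrichment of the later peaks also rested on the 1 added to both sides of the ratio. Without it the ratio was 35.9 for AGL61, 14.8 for STK, 11.0 for MFO1, 15.7 for the upstream SOC1 peak and 9.32 and 10.8 for the intronic and start-site AGL21 peaks. The SOC1 peaks of Ov1.1 had 4.08 in the intron of Cor0152090.1 and 3.81 at Cor0083230.1. Without it the interval of AGL61 was 9.78 to 91.9, apart from the 2.28 to 6.72 of the intronic SOC1 peak of Ov1.1 and the 2.08 to 6.38 of Cor0083230.1. These were 2 of the 28 pairs, and all other pairs still overlapped. Both pairs set a peak of Ov3.1 beside one of Ov1.1, from separate peak calls. Their backgrounds, held fixed, were 0.111 for AGL61 and 3.68 for the SOC1 peaks, so no difference between stages is drawn from them. The order of members therefore depended on this term, between lists and also within the Ov2.1 list, where the STK and MFO1 peaks then stood above both AGL21 peaks. Ranks by fold enrichment given above hold for the deposited ratio.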

How the data were processed

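Peaks had been called by the authors for each stage with MACS2, with the input library as control and a q limit of 0.05, on reads aligned with Bowtie2. The sources used here do not give the tool versions, the treatment of duplicates or the genome size, any of which can change background and calls. The deposited fold enrichment is a ratio of ChIP to background, the deposited values of p and q are given as −log10, and the deposited score is the whole part of 10 times −log10 q. Fragments and background at a summit were solved from the ratio, taken as fragments plus 1 over background plus 1, and from the Poisson probability of more fragments. On simulated data this solver recovered 100% of the fragment numbers. Library depth was not computed here, since a peak list holds no read totals and those of the study are not repeated, so precision was taken from the solved fragments.

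Distances run between nearest edges on the contigs of the authors' genome. The MADS-box genes, the window of 50 kb and all peaks named were chosen with earlier results of these data known. Named were the members, every peak within the window, the nearest outside it and all peaks of the SOC1 and MFO1 contig. The stretch beside AGL61 was picked out once its values had been seen. The study's annotation gave symbols, classes with intron number, closest genes, gene orientation, domains, best hits and gene products. No peak value was taken from it. No sequence was read. The alternatives comprised stricter q and fold-enrichment limits, other windows, the other Poisson tail, no added 1 and ranks by −log10 q. Scripts ran in Python 3.11.15 with scipy 1.17.1, numpy 2.4.6 and pandas 2.3.3, and figures were drawn with matplotlib 3.10.9.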

Additional observations from a re-analysis of the deposited data

How the results depend on the processing

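Of the 8 MADS-box peaks, 3 remained with a q of at most 0.01, 1 with a q of at most 0.001 and 1 with a fold enrichment of at least 4. With 1 fragment fewer at the summit, an alternative chosen after seeing the data, 4 kept a p within their list. The 6 other peaks within 50 kb became 1 within 20 kb and 11 within 100 kb. They were 2 where a q of at most 0.01 was asked of them, and again 6 when distance ran between midpoints. Ranked by −log10 q in place of fold enrichment, 4 of the 8 members moved within their list, the Ov1.1 peak of Cor0083230.1 to 25.3% of the list below it, against 48.1%. With the probability of at least as many fragments, no whole number met the deposited p of any member within 0.01, so this tail gave no usable fragment number. No paired analysis was possible because each stage had 1 ChIP library, and for the same reason no library could be left out. The limits of these results are the missing replicates, the 3 or 4 fragments behind each later peak and the choice of the members on their own peaks.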
